A study of Homo sapiens with 2 samples.

Results

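Axon guidance genes encode the secreted and membrane-bound cues that steer growing axons and migrating neural crest cells, together with the receptors that read them. The set described here holds all protein-coding genes whose symbol in GENCODE version 44 belongs to the semaphorins, plexins, neuropilins, ephrins, Eph receptors, SLITs, ROBOs, netrins or UNC5 receptors. Members were taken by symbol alone, with no measured value in the rule. This gave 68 genes of 9 families, 35 of them ligand genes and 33 receptor genes, out of 19586 protein-coding genes and 60554 genes in the files.

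Chromatin-associated RNA was sequenced from SH-SY5Y cells (SHSY-5Y in the labels), a human neuroblastoma line that is a subline of SK-N-SH. The cells carried no genetic modification, and the 2 libraries are replicates of this 1 condition. No source used here says if they are separate cultures, so the spread between them may be technical. Levels are counts of read pairs in annotated exons on the strand of the gene, per 1000000 such counts (CPM), and are given as the mean of the 2 libraries with their SD. To compare genes of different length, CPM was divided by the length of the annotated exons in kb. Gene positions are on GRCh38 (hg38).

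Guidance cues act in ligand and receptor pairs. SLITs are large secreted proteins that repel axons through ROBO receptors, and netrins attract through DCC and repel through UNC5 receptors. Semaphorins signal through plexins, the secreted class 3 members mostly with a neuropilin as co-receptor. Ephrins stay bound to the membrane and signal to Eph receptor tyrosine kinases on the next cell, and can also signal back into the cell that carries them. The sympathoadrenal lineage, from which neuroblastoma arises, forms from neural crest cells whose paths are set by several of these cues. RNA on chromatin includes transcripts still being made, so these levels reflect RNA in the nucleus and not protein at the cell surface. In a bulk culture, fewer cells of a type and less RNA per cell cannot be told apart.

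Most of the guidance genes were present in the chromatin RNA, and a few of them carried most of it. Of the 68 members, 53 (77.9%) had a mean of 10 counts or more over the libraries, against 59.4% of all protein-coding genes. These 53 genes are called detected below. A level of at least 100 CPM was reached by 12 members (17.6%), against 12.5% of all protein-coding genes. Limits in counts or CPM are reached more easily by genes with long exons, and these shares were not adjusted for length. Another 28 members lay between 10 and 100 CPM and 28 lay under 10 CPM. The median was 13.3 CPM over the members and 8.61 CPM over all protein-coding genes. Per kb of exon the medians were 2.07 and 1.90 CPM per kb, since the members are long genes, with a median exon length of 6.91 kb against 4.48 kb. Among detected genes alone, the members had a median of 4.02 CPM per kb and all protein-coding genes one of 6.50 CPM per kb. All members together held 23446 counts in replicate 1 and 17933 in replicate 2, which was 0.564% and 0.524% of the counts in genes.

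The distribution was uneven. The highest member by CPM, SLIT3, took 26.1% of the summed CPM of the set, the 5 highest took 63.0% and the 10 highest took 79.1%. Per kb of exon the order from the top was SLIT3, SEMA3C, UNC5C, UNC5B and SEMA5A. The values of the 2 libraries did not overlap between neighbours in this order down to SEMA5A. From SEMA5A through PLXNB1, SEMA4C, PLXNA1, PLXNB2, SEMA6A and ROBO1 to PLXNA2, each gene overlapped the next, so that neighbours among these 8 genes are not resolved. Some genes farther apart in this order did separate and others did not. SEMA5A, at 28.9 and 26.2 CPM per kb in the 2 libraries, lay above both values of SEMA4C and of each gene after it. The range of PLXNB2 between the libraries, in contrast, held both values of ROBO1 and of PLXNA2. PLXNA2, at 11.3 CPM per kb, and the next gene, SEMA6D, at 6.64 CPM per kb, did not overlap. Ligand genes held 2967 ± 102 CPM (SD, n = 2) and receptor genes 2472 ± 186 CPM (SD, n = 2), and 27 of 35 and 26 of 33 were detected.

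**Figure D1:**
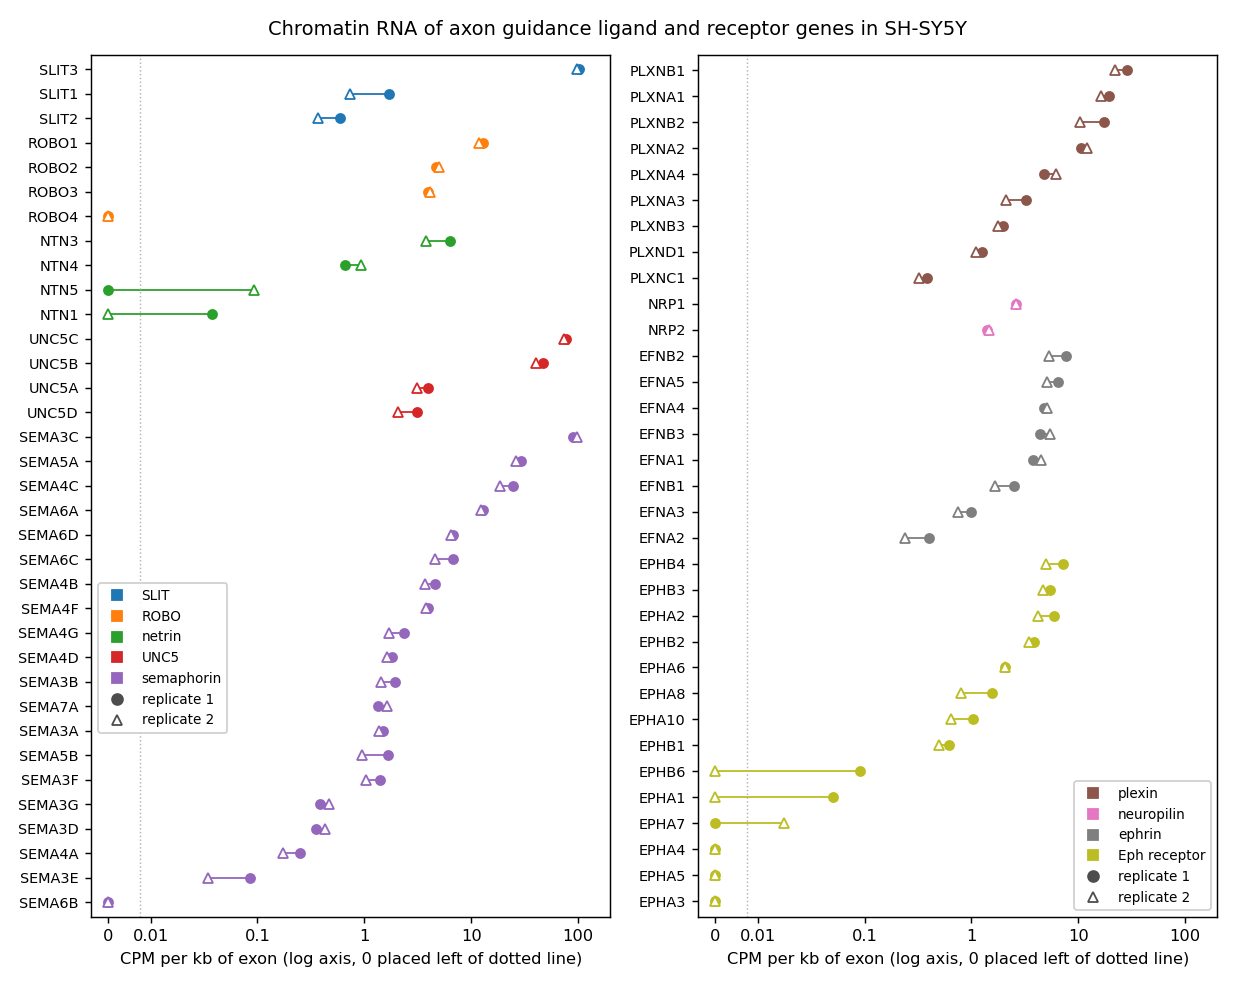
CPM per kb of exon of all 68 genes in replicate 1 (filled circles) and replicate 2 (open triangles) on a log axis, coloured by family, with values of 0 placed left of the dotted line. SLIT3, SEMA3C and UNC5C lie highest, at 99.4, 93.5 and 75.4 CPM per kb, and EPHA3, EPHA4, EPHA5, ROBO4 and SEMA6B lie at 0 in both libraries.

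Among the SLIT ligands, SLIT3 stood far above its relatives. SLIT3 (ENSG00000184347, chr5:168661740-169301139, minus strand) had 5966 counts in replicate 1 and 4792 in replicate 2. This was 1417 ± 26.0 CPM (SD, n = 2), rank 20 of all protein-coding genes by CPM. Per kb of exon it was 99.4 ± 1.82 CPM per kb (SD, n = 2), rank 98 of all protein-coding genes. SLIT1 had 64 and 23 counts in the 2 libraries, or 11.1 ± 6.14 CPM (SD, n = 2). SLIT2 had 27 and 14 counts, or 5.29 ± 1.70 CPM (SD, n = 2). All 3 SLIT genes were detected, and SLIT3 made up 98.9% of the summed CPM of the family.

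The SLIT genes also house microRNAs, whose mature sequences from RefSeq on GRCh38.p14 are shown because the same miRNA, miR-218-5p, is encoded inside the highest and the lowest member of this family. MIR218-2 lies in an intron of SLIT3 and MIR218-1 in an intron of SLIT2, each on the strand of its host, and both give the same 5p sequence. MIR585 lies in another intron of SLIT3, and MIR4636 in an intron of SEMA5A. Capitals mark the seed, bases 2 to 8, which pairs with target RNAs. The 6 sequences have 6 different seeds.
miR-218-5p: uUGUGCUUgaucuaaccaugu
miR-218-1-3p: aUGGUUCCgucaagcaccaugg
miR-218-2-3p: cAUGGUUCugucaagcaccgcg
miR-585-5p: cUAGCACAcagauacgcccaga
miR-585-3p: uGGGCGUAucuguaugcua
miR-4636: aACUCGUGuucaaagccuuuag
Rows of the count files for the hairpins hold any read pair that overlaps them, so they record longer RNA over them, such as the host transcript, and not the mature miRNA. The MIR218-2 row (chr5:168768146-168768255) had 99 counts in replicate 1 and 72 in replicate 2 on the SLIT3 strand, and 0 in both on the other strand. The MIR585 row had 10 and 13 counts and the MIR4636 row 8 and 8, also with none on the other strand. The MIR218-1 row (chr4:20528275-20528384) had no count in either library. The copy of miR-218 inside SLIT3 was thus covered by chromatin RNA, and no read pair was counted over the copy inside SLIT2. SLIT2 had only 27 and 14 counts over 11.1 kb of exon. No count over a row of 110 bp therefore does not show that this copy was not transcribed. Another row inside SLIT2, SLIT2-IT1 on the same strand and clear of its exons, had 4 and 1 counts. In all, 10 annotated miRNA genes lay inside 8 members, and 6 of them had a count on the strand of the member.

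Of the ROBO receptor genes, 3 of 4 were detected. ROBO1, the receptor best known for midline repulsion by SLITs, had 593 and 449 counts in replicates 1 and 2, or 137 ± 8.22 CPM (SD, n = 2) and 12.4 CPM per kb. ROBO2, its close relative, had 321 and 285 counts, or 80.2 ± 4.21 CPM (SD, n = 2) and 4.82 CPM per kb. ROBO3, which modulates SLIT responses in commissural neurons, had 113 and 99 counts, or 28.0 ± 1.21 CPM (SD, n = 2). ROBO4, which is known from endothelial cells, had no count on its strand. ROBO1 and ROBO2 are among the longest genes of the set, spanning 1171 and 1743 kb. The family summed to 245 ± 2.81 CPM (SD, n = 2), below the SLIT sum of 1434 ± 33.9 CPM (SD, n = 2), which was nearly all SLIT3. By family median the order was the reverse, at 54.1 CPM for the ROBO genes and 11.1 CPM for the SLIT genes. SLIT1 and SLIT2 lay below ROBO1, ROBO2 and ROBO3.

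Netrin genes were low, while the UNC5 receptors were high. NTN1, the founding netrin of the floor plate, had 1 count in replicate 1 and none in replicate 2. NTN5 had 0 and 1 counts. NTN3 was the highest netrin gene, with 57 and 28 counts, or 10.9 ± 3.92 CPM (SD, n = 2). NTN4, a netrin of basement membranes, had 12 and 14 counts, or 3.49 ± 0.848 CPM (SD, n = 2). The 4 netrin genes summed to 14.7 ± 3.04 CPM (SD, n = 2), the lowest summed CPM of the 9 families, while per kb of exon the 2 neuropilin genes had a lower sum, 4.03 against 5.87 CPM per kb.

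All 4 UNC5 genes were detected, and the family summed to 1144 ± 69.2 CPM (SD, n = 2). UNC5C (ENSG00000182168, chr4:95162504-95549206, minus strand) had 3427 and 2691 counts in replicates 1 and 2, or 805 ± 27.7 CPM (SD, n = 2) and 75.4 CPM per kb. It made up 70.4% of the summed CPM of the family. UNC5B (ENSG00000107731, chr10:71212570-71302864, plus strand) had 1320 and 939 counts, or 296 ± 30.8 CPM (SD, n = 2) and 43.3 CPM per kb. UNC5D had 140 and 76 counts, or 27.9 ± 8.14 CPM (SD, n = 2), and UNC5A had 71 and 46, or 15.3 ± 2.59 CPM (SD, n = 2). UNC5 proteins are dependence receptors, which can trigger cell death when no netrin is bound. DCC, the attractive netrin receptor, had no count in either library, which bounds it at 0.396 CPM (3 counts over both libraries, counting error only). Its relative NEO1, which binds netrins and RGM proteins, had 612 and 528 counts, or 151 ± 4.85 CPM (SD, n = 2). Of the netrin receptors, UNC5B and UNC5C were thus among the highest genes of the set in chromatin RNA in which DCC had no count.

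The semaphorins were the largest family, with 16 of 20 genes detected and a sum of 1412 ± 52.0 CPM (SD, n = 2). SEMA3C (ENSG00000075223, chr7:80742538-80922359, minus strand), a secreted cue known from neural crest cells of the cardiac outflow tract, had 2287 counts in replicate 1 and 2023 in replicate 2. This was 570 ± 28.4 CPM (SD, n = 2), or 93.5 ± 4.66 CPM per kb of exon (SD, n = 2). The other 6 class 3 genes were far lower, between 0.507 CPM for SEMA3E and 13.3 CPM for SEMA3A, and SEMA3C made up 94.3% of the summed CPM of the class. Among the members, SEMA3C, SEMA3E, SEMA3A and SEMA3D follow each other on the minus strand of chromosome 7, with gaps of 2.44, 0.307 and 0.503 Mb that may hold other genes. SEMA3E, SEMA3A and SEMA3D were at 0.060, 1.43 and 0.387 CPM per kb, in that order. SEMA3F and SEMA3B, a neighbouring pair on chromosome 3 that lies 0.078 Mb apart, had 1.21 and 1.67 CPM per kb.

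Of the membrane-bound semaphorins, SEMA5A was the highest. SEMA5A, which carries thrombospondin repeats, had 1479 counts in replicate 1 and 1105 in replicate 2, or 339 ± 23.6 CPM (SD, n = 2) and 27.6 CPM per kb. SEMA5B, the other gene of this class, had 59 and 28 counts, or 11.2 ± 4.26 CPM (SD, n = 2). SEMA6A, a ligand of PLXNA2 and PLXNA4, had 582 and 464 counts, or 138 ± 3.25 CPM (SD, n = 2). SEMA4C, a ligand of PLXNB2, had 634 and 397 counts, or 134 ± 25.9 CPM (SD, n = 2). SEMA6D stood at 56.6 ± 1.62 CPM and SEMA6C at 32.8 ± 8.78 CPM (SD, n = 2). SEMA4B, SEMA4D and SEMA4F lay between 24.0 and 28.7 CPM, SEMA4G at 10.8 CPM and the GPI-anchored SEMA7A at 5.59 CPM. SEMA4A, SEMA3G and SEMA3E were under a mean count of 10, and SEMA6B had no count.

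All 9 plexin genes, the receptors of semaphorins, were detected. They summed to 850 ± 88.6 CPM (SD, n = 2), of which PLXNB1 held 28.8%, so that no single gene led this family as SLIT3 led the SLITs. PLXNB1, the receptor of SEMA4D, had 1151 counts in replicate 1 and 729 in replicate 2, or 245 ± 45.4 CPM (SD, n = 2) and 25.1 CPM per kb. PLXNA1, which pairs with neuropilins, had 901 and 624 counts, or 200 ± 24.5 CPM (SD, n = 2). PLXNA2 had 608 and 567 counts, or 156 ± 13.6 CPM (SD, n = 2). PLXNB2 had 524 and 258 counts, or 101 ± 35.9 CPM (SD, n = 2), and PLXNA4 had 326 and 343, or 89.3 ± 15.3 CPM (SD, n = 2). PLXNA3, PLXNB3, PLXND1 and PLXNC1 lay between 3.53 and 31.3 CPM. For the pairs with a known partner, SEMA4D stood at 24.4 CPM beside PLXNB1 at 245 CPM, SEMA7A at 5.59 CPM beside PLXNC1 at 3.53 CPM, and SEMA3E at 0.507 CPM beside PLXND1 at 11.3 CPM.

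Both neuropilin genes were detected at moderate level. NRP1 had 125 and 103 counts in replicates 1 and 2, or 30.1 CPM in each library (SD 0.00879, n = 2). NRP2 had 80 and 69 counts, or 19.7 ± 0.630 CPM (SD, n = 2). Per kb of exon they stood at 2.61 and 1.42 CPM per kb, beside a median of 5.46 CPM per kb over the plexin genes. Both neuropilin proteins can bind SEMA3C, the leading class 3 gene here.

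Ephrin and Eph receptor genes had low summed CPM, while per kb of exon the ephrin median lay above that of the whole set and the Eph receptor median below it. The ephrin median was 4.52 CPM per kb and the Eph receptor median 0.699 CPM per kb, against 2.07 CPM per kb over all members. The 8 ephrin genes summed to 106 ± 12.9 CPM (SD, n = 2), with 6 of them detected, and the 14 Eph receptor genes summed to 183 ± 26.1 CPM (SD, n = 2), with 8 detected. EFNB2, a transmembrane ephrin known from arterial and neuronal cells, had 161 and 91 counts in replicates 1 and 2, or 32.7 ± 8.61 CPM (SD, n = 2) and 6.52 CPM per kb. EFNA5, a GPI-anchored ephrin known from topographic mapping in the visual system, had 155 and 101 counts, or 33.4 ± 5.53 CPM (SD, n = 2) and 5.82 CPM per kb. EFNB3, EFNA1, EFNB1 and EFNA4 lay between 6.22 and 15.9 CPM, and EFNA3 and EFNA2 were under a mean count of 10. EFNA4, EFNA3 and EFNA1 follow each other within a short stretch of chromosome 1, at 4.95, 0.871 and 4.11 CPM per kb. The annotated gene EFNA4-EFNA3, on the same strand, shares 853 of the 1944 bp of EFNA3 exon and 189 of the 1257 bp of EFNA4 exon. Pairs over shared exon are in no count, so both can be undercounted, EFNA3 over the larger part, and their levels are not directly comparable.

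Receptors of the EphB class were more often detected than those of the EphA class, at 4 of 5 and 4 of 9 genes, and the difference was not tested. EPHB4, a receptor of EFNB2, had 192 and 111 counts in replicates 1 and 2, or 39.3 ± 9.76 CPM (SD, n = 2) and 6.11 CPM per kb. EPHB3 had 102 and 73 counts, or 22.9 ± 2.29 CPM (SD, n = 2) and 5.06 CPM per kb. EPHB2 stood at 45.5 ± 3.31 CPM (SD, n = 2) and EPHB1 at 3.26 ± 0.488 CPM (SD, n = 2), while EPHB6, a receptor without kinase activity, had 2 and 0 counts. In the EphA class, EPHA6 stood at 37.9 ± 0.119 CPM and EPHA2 at 20.8 ± 5.01 CPM (SD, n = 2), EPHA10 and EPHA8 at 6.84 and 6.40 CPM, and EPHA1 and EPHA7 had a mean count of 0.5 each.

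No count on the annotated strand in either library was found for 5 members (7.35%), against 24.9% of all protein-coding genes, without adjustment for exon length. They were EPHA3, EPHA4, EPHA5, ROBO4 and SEMA6B, each bounded at 0.396 CPM over both libraries. EPHA3 (chr3:89107621-89482134), EPHA4 (chr2:221418027-221574202) and EPHA5 (chr4:65319563-65670495) have 6.58, 7.55 and 9.83 kb of exon, against the median of 6.91 kb over the members. A further 10 members had a mean count above 0 and under 10. The 15 members that were not detected had a median span of 30.4 kb and the 53 detected members one of 70.4 kb.

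The undetected members had a higher median CpG content before their start than undetected protein-coding genes as a whole. CpG islands mark promoters that are widely used or held in check by Polycomb in cells that do not use them. For each gene the 250 bases before the MANE Select start were read from hg38, the letters CG were counted, which read alike on both strands, and the number was divided by that expected from the C and G content. Of 18937 protein-coding promoters, 97.3% held at least 1 CG, as did all 68 members, and 66.2% had an observed over expected ratio of at least 0.6. This ratio was reached by 44 of 53 detected members (83.0%) and 9 of 15 undetected members (60.0%). Among all protein-coding genes it was reached by 86.4% of detected and 34.8% of undetected ones. The median ratios were 0.79 in detected and 0.64 in undetected members, against 0.85 and 0.37 in all protein-coding genes. No test was made, and the start in use in these cells was not measured.

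The promoters of SLIT3, the highest member, and EPHA3, without a count, show how close this content can be. These genes were chosen after their values were seen. Each line gives the 250 bases before the start on the strand of the gene, with every CG in capitals, for SLIT3 at chr5:169301140-169301389 (minus strand) and for EPHA3 at chr3:89107371-89107620 (plus strand), both on hg38.
SLIT3: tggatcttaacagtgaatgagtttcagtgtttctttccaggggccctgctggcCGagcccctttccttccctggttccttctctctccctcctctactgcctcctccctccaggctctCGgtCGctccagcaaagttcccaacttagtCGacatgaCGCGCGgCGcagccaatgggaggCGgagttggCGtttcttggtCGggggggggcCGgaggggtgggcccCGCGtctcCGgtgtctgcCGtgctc
EPHA3: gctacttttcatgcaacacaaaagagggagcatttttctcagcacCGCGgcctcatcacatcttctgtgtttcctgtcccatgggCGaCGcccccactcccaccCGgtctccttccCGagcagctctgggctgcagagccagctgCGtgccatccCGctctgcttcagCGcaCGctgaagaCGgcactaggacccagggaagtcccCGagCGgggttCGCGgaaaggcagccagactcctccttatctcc
The SLIT3 window held 16 CG, with a ratio of 0.65 and a GC content of 62.8%, and the EPHA3 window held 15, with 0.66 and 61.2%. Their levels were 99.4 CPM per kb and 0. Of the 12 highest members per kb, only PLXNB1 had a ratio under 0.6, at 0.19, and of the 5 members without a count, EPHA3, EPHA4 and EPHA5 had one of at least 0.6.

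Reads that lay in introns of several members were also visible, through small annotated genes that lie inside them. Introns have no rows of their own in the count files, but a gene inside an intron, on either strand, records read pairs of the surrounding transcript that overlap it. Where such a gene lies on the strand of the host, its own RNA cannot be told apart from that of the host. Inside the 53 detected members, 50 such genes lay in introns of 25 members, clear of exons of the host. On the strand of the host they held 1792 counts in replicate 1 and 1580 in replicate 2, and on the other strand 14 and 16. The host-strand counts include those of genes annotated on that strand. All 24 and 25 counts at EFNB2 came from the lncRNA ENSG00000274204 of this kind, and 52 and 38 of the 53 and 38 at UNC5D from ENSG00000279099. Inside undetected members there were 4 such genes in 4 members, without a count on the host strand and with 1 and 3 counts on the other.

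SLIT3 had most of this intronic signal. The 5 intronic rows of SLIT3 held 1088 and 897 counts on its strand and none on the other strand. SLIT3-AS1, an antisense lncRNA annotated inside it, had 772 and 643 counts on the SLIT3 strand and 0 on its own strand in both libraries. The 5 intronic rows of SEMA5A held 330 and 380 counts on its strand, and SEMA5A-AS1 among them had 179 and 208 on the SEMA5A strand and none on its own. The row of UNC5B-AS1 had 43 and 25 counts on the strand of UNC5B and none on its own. For these 3 antisense genes, counts without strand would thus have come from the host strand alone. The 7 intronic rows of SEMA6D held 89 and 66 counts and the 3 of ROBO1 held 38 and 36, with none on the other strand. Some rows of SLIT3, SEMA5A, SEMA6D and ROBO1 belong to genes on the host strand, such as RN7SL751P in ROBO1 with 23 and 27 counts. RNA of such genes is not separated from host RNA in these sums. The rows also differ in number and length between genes, so that their sums are no measure of intron coverage between genes.

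Most members were counted almost wholly on their own strand. Of the 56 members with a mean of at least 10 counts over both strands, 36 had at least 99% of them on the annotated strand, and the median share was 99.9%, against 98.9% over protein-coding genes. The share was under 90% in 11 members. In 6 of the 68 members (8.82%) the opposite strand held a mean of 10 counts or more, and more counts than the annotated strand, as in 6.58% of all protein-coding genes.

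PLXNC1, the receptor of SEMA7A, was the clearest of the 6. It had 16 and 11 counts on its strand in replicates 1 and 2, and 293 and 294 on the opposite strand. Of the opposite-strand genes that share exon with it, the lncRNA ENSG00000258365 (222 bp) had 27 and 22 counts on its own strand. CEP83, a centriole gene that ends inside PLXNC1 on the opposite strand with 177 bp of shared exon, had 498 and 448 counts on its own strand. SEMA4G had 52 and 31 counts on its strand and 90 and 79 opposite, where the mitochondrial ribosome gene MRPL43 shares 1215 bp of exon and had 101 and 78 counts, and the lncRNA ENSG00000236662 shares 271 bp and had 17 and 8. NTN3 had 57 and 28 counts on its strand and 59 and 37 opposite. EPHA1 had 1 and 0 counts on its strand and 33 and 21 opposite, where ZYX, the gene of the adhesion protein zyxin, shares 82 bp and had 85 and 64 counts. NTN1 had 1 and 0 counts on its strand and 20 and 11 opposite. ROBO4 had none on its strand and 17 and 22 opposite, and ROBO3, with 113 and 99 counts, ends 2.22 kb from ROBO4 on that strand. Whether RNA of these neighbours gave the opposite counts was not tested.

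SEMA4D was counted about equally on both strands, with 107 and 79 counts on its own and 96 and 79 opposite. Among members mainly counted on their own strand, SEMA6A had 163 and 112 counts opposite, or 79.2% on its own strand, and UNC5C had 240 and 177, or 93.6% on its own strand. SEMA6A and UNC5C each overlap annotated antisense RNAs. UNC5C-AS1, which shares 78 bp of exon with UNC5C, had 121 and 101 counts on its own strand. SEMA6A-AS1, which shares 268 bp with SEMA6A, had 43 and 27 on its own strand and 194 and 158 on the SEMA6A strand. In both cases the opposite counts of the member exceeded the own-strand counts of this antisense RNA, and their source was not tested. Read pairs over exons of both genes of such a pair are told apart by strand in these libraries.

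The libraries differed by more than counting error in some members. Each gene with a sum of at least 20 counts was compared between the libraries by an exact binomial test against the library totals, with Benjamini-Hochberg adjustment over all 14978 genes tested. It compares these 2 libraries and says nothing about conditions. Of the 53 members tested, 10 were higher in replicate 1 (18.9%), against 4.9% of all genes tested. Only PLXNA4 was higher in replicate 2 (1.89%), against 2.44% of all genes tested. The genes tested are of every class, while all members are protein-coding, and the 2 sets were not matched for count or GC. The 10 were PLXNB2, PLXNB1, SEMA4C, SLIT1, UNC5B, PLXNA1, PLXNA3, EPHB4, UNC5D and SEMA6C.

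PLXNB2 had the smallest adjusted p, with 126 CPM in replicate 1 and 75.3 CPM in replicate 2, a ratio of 0.60 (exact binomial test, adjusted p = 1.2e-09). PLXNB1 had a ratio of 0.77 (exact binomial test, adjusted p = 2.6e-06) and SEMA4C one of 0.76 (exact binomial test, adjusted p = 0.00080). SLIT1 had the lowest ratio of the 11, 0.44 (exact binomial test, adjusted p = 0.012). PLXNA4 had 78.5 CPM in replicate 1 and 100.1 CPM in replicate 2, a ratio of 1.28 (exact binomial test, adjusted p = 0.029). The other 6 had ratios between 0.66 and 0.86 and adjusted p values from 0.013 to 0.049 in the exact binomial test. SLIT3, SEMA3C and UNC5C, the leading members per kb, had ratios of 0.97, 1.07 and 0.95 and were not called.

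GC content of the transcript moved with this ratio. The longest transcripts of the 10 members higher in replicate 1 had a median GC of 60.6%, with UNC5D lowest at 42.9% and the highest at 64.1%, and the 42 members not called had a median of 54.1%. Across the 53 detected members the log2 ratio of replicate 2 over replicate 1 and transcript GC were inversely related, with a Pearson coefficient of -0.44 and a Spearman coefficient of -0.47. Across 11637 detected protein-coding genes they were -0.47 and -0.50. These are descriptions across genes of the same 2 libraries, and genes are not independent replicates. Of the 53 detected members, 26 lay in the top 20% of detected protein-coding genes by GC, above 57.6%. From the lowest to the highest of 5 GC classes of equal size, the median ratio was 1.07, 1.04, 0.99, 0.92 and 0.80 for all protein-coding genes. For the 5, 4, 9, 9 and 26 members in these classes it was 1.07, 0.87, 0.92, 0.95 and 0.75, which did not fall steadily. Whether GC content set these differences was not tested.

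**Figure D2:**
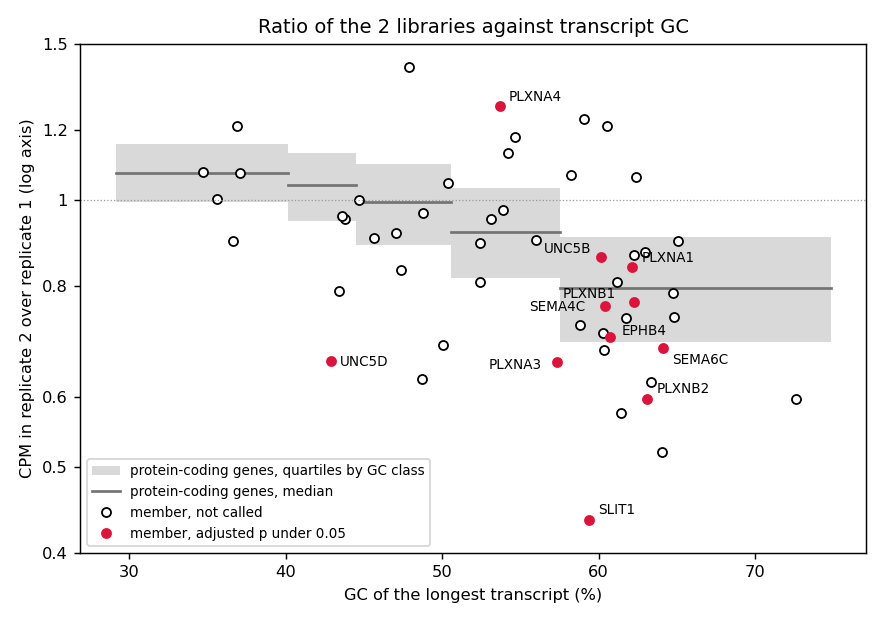
Ratio of CPM in replicate 2 over replicate 1 (log axis) against the GC content of the longest transcript for the 53 detected members, filled where the adjusted p was under 0.05. Grey boxes and lines give the quartiles and median of detected protein-coding genes in 5 GC classes of equal size, and their median goes from 1.07 in the lowest to 0.80 in the highest class.

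Other genes of the guidance pathway came from a list of 55 co-receptors, further cues and intracellular effectors. Detected were 47 of them, 15 of 20 co-receptors and cues and 32 of 35 effectors, with medians of 23.7 and 58.5 CPM. Highest among co-receptors and cues were the cell adhesion gene NRCAM at 938 ± 9.08 CPM, the hedgehog co-receptor gene CDON at 216 ± 4.03 CPM, the receptor phosphatase gene PTPRS at 182 ± 46.7 CPM and NEO1 at 151 ± 4.85 CPM (SD, n = 2). Lowest were DCC at 0, the adhesion genes FLRT2 and DSCAM at 0.146 and 0.266 CPM, and CHL1 at 0.481 CPM, all at or near the limit of 0.396 CPM that no count allows.

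Among the effectors, TRIO, a Rac exchange factor used downstream of netrin receptors, had 3888 counts in replicate 1 and 3032 in replicate 2, or 910 ± 35.7 CPM (SD, n = 2). The plexin-binding exchange factor gene FARP1 followed with 344 ± 11.98 CPM, then the actin regulator gene ENAH with 231 ± 4.65 CPM and the Rac activator gene DOCK1 with 225 ± 13.9 CPM (SD, n = 2). Lowest were NGEF, an exchange factor downstream of EphA receptors, at 0.266 CPM, FES at 0.773 CPM, RND1 at 0.894 CPM and the growth cone gene GAP43 at 3.86 CPM. The core cytoskeletal switches RHOA, RAC1 and CDC42 stood at 21.3, 34.8 and 58.5 CPM.

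Uniquely mapped read pairs numbered 22446529 in replicate 1 and 19566145 in replicate 2, and 4155210 and 3425309 of them were counts in genes on the annotated strand. In no exon on the counted strand lay 79.4% and 80.7% of the pairs, which the levels here leave out. Pairs that overlap exons of genes on the opposite strand only are among them. Of 6 markers of sympathetic neuroblasts, all were detected, with HAND2 at 831 ± 153 CPM (SD, n = 2), and the summed level was 2890 CPM in replicate 1 and 2530 CPM in replicate 2. None of 5 Schwann cell, 5 endothelial or 4 leukocyte markers was detected, with sums of at most 1.46 CPM in each library and SOX10, PECAM1 and PTPRC without a count. Of 5 fibroblast markers, 4 were detected, with a list median of 6.98 CPM and sums of 307 and 316 CPM in replicates 1 and 2. COL3A1 made up most of these, at 280 ± 0.133 CPM (SD, n = 2), and DCN stood at 16.6, COL1A1 at 6.31 and the undetected PRRX1 at 1.04 CPM.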

How the data were processed

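Chromatin RNA of SH-SY5Y cells was fractionated by the authors, made into directional paired-end libraries with molecular identifiers, trimmed, cleared of spike-in and rRNA reads with Bowtie, mapped with STAR, freed of PCR duplicates with UMI-tools and mapped again. The authors deposited the gene counts of STAR without normalization, in column 2 without strand and in columns 3 and 4 for each strand. The build is hg38 per the submitters' processing notes. STAR options, tool versions and the gene annotation are not stated in the sources read. Column 4, with the higher total in both libraries (4155210 and 3425309 counts in genes), was used as the annotated strand, and column 3 as the opposite strand. Multimapping pairs and pairs over exons of several genes are in no count, so that genes with near copies or overlapping exons are undercounted.

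Of 60554 genes in the files, 56558 were found in GENCODE version 44 by identifier without version. The lncRNA ENSG00000261292 lies wholly in version 44 exon of EPHA6 on the same strand, yet had 8 and 10 counts. Pairs there would be in no count if that stretch had been EPHA6 exon in the annotation used. The exon length of EPHA6 thus differs from the exon counted. CPM, CPM per kb of the union of annotated exons, and an exact binomial test between the libraries (two-sided, Benjamini-Hochberg over all genes with a sum of at least 20 counts) were computed in Python 3.11.15 (scipy 1.17.1, numpy 2.4.6, pandas 2.3.3), and TMM factors with edgeR 4.0.16 in R 4.3.3. The binomial test was tested on simulated data with known changes. Those data held counting error only, without further spread or a shift with GC between libraries. They therefore do not show the error rate of the test here. With 1 condition no count model was fitted. Mature miRNA sequences are from RefSeq, and promoter windows from hg38 at MANE Select starts. The members, lists and tests were chosen with earlier results of these data known. Named are the 2 members of each family highest by CPM per kb, the 12 highest by CPM, those with more opposite than annotated strand counts at a mean of at least 10, those that differed between the libraries and those without a count, and of each part of the pathway list the 4 highest and 4 lowest. Others are named to account for every member. Alternatives were the other strand columns, each library alone, other scales, length and detection limits. The floor of 0.396 CPM is 3 counts over both libraries and covers counting error only.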

Additional observations from a re-analysis of the deposited data

Results flagged for a closer look

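The counts of 6 members on the strand opposite to the gene stood above the limit that no count allows, in a column that the levels above do not use, and exceeded the counts on the annotated strand. The mean opposite strand count over the 2 libraries was 293.5 at PLXNC1, 84.5 at SEMA4G, 48.0 at NTN3, 27.0 at EPHA1, 19.5 at ROBO4 and 15.5 at NTN1. PLXNC1 had 293 and 294 such counts, in libraries with 540916 and 436277 counts on the opposite strand. An opposite-strand gene with counts shares exon sequence with PLXNC1 (CEP83, 177 bp, and ENSG00000258365, 222 bp), SEMA4G (MRPL43, 1215 bp, and ENSG00000236662, 271 bp), EPHA1 (ZYX, 82 bp) and ROBO4 (the lncRNA ENSG00000254568, 744 bp, with 7 and 4 counts). NTN3 and NTN1 share exon sequence with no opposite-strand gene here, and the nearest with more than 10 counts in each library are TEDC2-AS1, 3.08 kb from NTN3 with 43 and 38 counts, and STX8, 6.47 kb from NTN1 with 65 and 44 counts. The part of these genes in the opposite counts was not tested.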

How the results depend on the processing

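No paired analysis was possible because the 2 libraries are replicates of a single condition. The number of detected members was 53, stayed between 47 and 59 with the unstranded column, a mean count of at least 1 or a limit of 1 CPM per kb, and was 53 to 53 with 1 library left out. It was 26 at a mean count of at least 100 and 11 in the opposite strand column. The median CPM of members, 13.3, was 12.6 to 14.2 with 1 library left out, 16.7 in the unstranded column, 0 in the opposite strand column and 24.4 with members under a mean count of 10 left out. The median CPM per kb, 2.07, was 1.92 to 2.42, 2.56, 0 and 4.02 in the same order, and 2.94 with the longest transcript as length. In the unstranded column SLIT3 stood at 1245 CPM and SEMA3C at 557 CPM, which puts SEMA3C above SLIT3 per kb of exon. The median share on the annotated strand, 99.88%, was 99.96% over all members with a count and 100% to 100% with 1 library left out. The members differing between libraries numbered 11 with either other scale, the same genes, 9 in the unstranded column and 6 when all genes with a count were tested, which adds tests; those 6 were among the 11. Pathway genes detected went from 47 to 35 at a mean count of at least 100 and were 46 to 46 with 1 library left out. The cause was not tested for the other shifts. Depth limits low genes, and the 15 undetected members have no usable fold between libraries.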
